A study of Mus musculus with 4 samples.

Results

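Small leucine-rich proteoglycans (SLRPs) are secreted proteins of the extracellular matrix, built on a curved core of leucine-rich repeats, and most of them carry chondroitin, dermatan or keratan sulfate chains. They attach to collagen fibrils, where they govern fibril spacing and width, and several also hold growth factors such as TGF-beta close to the cell. In skin they come mainly from fibroblasts, the same cells that make fibrillar collagen, and mice without decorin or lumican have fragile skin. The 9 genes described here were taken by name from 22913 listed genes. They are Dcn, Bgn and Aspn (class I), Lum, Fmod, Prelp and Omd (class II), Ogn (class III) and Podn (class V), and all 9 were found under their symbols.

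RNA was sequenced from dermal white adipose tissue (dWAT), the fat layer under the dermis, of C57BL/6 mice. There were 4 libraries, 1 for each of OTD (old, telogen), YTD (young, telogen), OAD (old, anagen) and YAD (young, anagen), and the study harvested dWAT of many mice for each group. The titles name the libraries old or young and the labelled protocol puts old mice at 18 months and young mice at 2 months of age, whereas the age tags name 18 months for YTD and 2 months for OAD. Telogen is the resting and anagen the growing phase of the hair cycle. Anagen was brought on by depilation, so hair phase and depilation cannot be told apart here. With 1 library per group every comparison below is between single libraries, and none has an error or a p-value. In such bulk tissue, fewer cells of a type and less RNA per cell cannot be told apart.

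Values are the authors' FPKM (fragments per kilobase of gene, scaled to the mapped fragments of the library). A change is the difference of log2(FPKM + 1) between libraries. A gene counts as changed when that difference is at least 1 in size, which is 2-fold on that scale and understates low genes. A fold is the plain ratio of FPKM. Each library enters 2 of the 4 comparisons, so these share values. The depth was roughly 20000000 to 23000000 fragments per library. Markers of fat were plentiful, with Adipoq at 280 FPKM in YTD and 427 in OTD, and 76.5 in YAD and 103 in OAD. The dissected tissue also held RNA of neighbouring tissues, with muscle Ckm at 1400 to 12413 FPKM and hair follicle Krt71 at 79.8 to 4503 FPKM. Mitochondrially encoded genes took 44.7% of all FPKM in YTD and 52.7% in OTD, against 14.4% in YAD and 18.3% in OAD.

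Of the 9 genes, 7 lie in 3 short gene clusters of the mouse genome (GRCm38). Aspn (ENSMUSG00000021388, 49544443 to 49567557), Omd (ENSMUSG00000048368, 49582766 to 49592609) and Ogn (ENSMUSG00000021390, 49608071 to 49624500) follow each other with their relative Ecm2 within 120 kb on the plus strand of chromosome 13. These 4 genes sit inside the listed span of Cenpp, a centromere protein gene on the opposite strand. Dcn (ENSMUSG00000019929, 97479500 to 97518162) and Lum (ENSMUSG00000036446, 97565501 to 97572703) neighbour each other on the plus strand of chromosome 10. Prelp (ENSMUSG00000041577, 133910304 to 133921414, minus strand) and Fmod (ENSMUSG00000041559, 134037254 to 134048277, plus strand) lie close together on chromosome 1. Bgn (ENSMUSG00000031375, 73483602 to 73495933, plus strand) is on chromosome X and Podn (ENSMUSG00000028600, 108014791 to 108096445, minus strand) on chromosome 4. The listed span of Podn overlaps that of Scp2 on the same strand, so reads of their shared stretch could have been split between them. Both RefSeq starts of Podn described below lie outside the span of Scp2, which begins at 108043839.

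The 250 bases before the RefSeq start (GRCm38.p6) are shown for 4 members, chosen because they stand for the patterns below. Ogn and Aspn are cluster neighbours, Bgn is the second most abundant member and Podn is the member that moved apart from the rest. Capitals mark matches to the letters TATAAA or CCAAT on either strand, and the sequences read 5′ to 3′ on the strand of the gene.
Ogn (chr13:49607765-49608014, plus strand): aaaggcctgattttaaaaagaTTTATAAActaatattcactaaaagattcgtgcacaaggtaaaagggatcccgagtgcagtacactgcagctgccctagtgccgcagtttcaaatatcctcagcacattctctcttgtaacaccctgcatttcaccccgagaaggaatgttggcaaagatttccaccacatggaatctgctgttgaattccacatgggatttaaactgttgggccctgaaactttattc
Aspn (chr13:49544193-49544442, plus strand): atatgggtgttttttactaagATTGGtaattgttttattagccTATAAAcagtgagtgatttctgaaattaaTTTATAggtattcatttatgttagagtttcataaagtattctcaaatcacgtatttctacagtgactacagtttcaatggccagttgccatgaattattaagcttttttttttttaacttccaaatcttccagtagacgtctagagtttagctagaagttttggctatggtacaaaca
Bgn (chrX:73483351-73483600, plus strand): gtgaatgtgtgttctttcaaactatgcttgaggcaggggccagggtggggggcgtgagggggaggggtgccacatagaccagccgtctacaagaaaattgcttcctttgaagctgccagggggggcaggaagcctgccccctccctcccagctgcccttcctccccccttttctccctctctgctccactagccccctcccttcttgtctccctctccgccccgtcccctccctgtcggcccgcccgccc
Podn (chr4:108031955-108032204, minus strand): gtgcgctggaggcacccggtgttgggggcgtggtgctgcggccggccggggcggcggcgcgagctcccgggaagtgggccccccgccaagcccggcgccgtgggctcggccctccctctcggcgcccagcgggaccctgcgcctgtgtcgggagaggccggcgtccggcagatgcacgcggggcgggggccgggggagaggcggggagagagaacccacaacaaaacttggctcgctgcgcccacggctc

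Of the 9 genes, 7 had an entry in the promoter table. Their windows were searched on both strands for the TATA box letters TATAAA, for the CCAAT box letters CCAAT, for the AP-1 motif TGANTCA, for the SMAD motif GTCTAGAC and for the C/EBP motif TTGCNNAA. TATAAA was found in Ogn and Aspn, in each case on both strands and 178 to 229 bases before the start, and the 2 matches in Ogn overlap each other. CCAAT was found in Aspn and Prelp, and TTGCNNAA in Fmod. Of all 32817 promoter windows of this length, 12.4% hold TATAAA, 33.8% CCAAT, 6.75% TGANTCA, 0.168% GTCTAGAC and 9.57% TTGCNNAA. Podn has 2 starts in the table, and the window shown holds 78% G and C and the other 64%. The window of Aspn holds 30%, and the median window 52.4%.

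Dcn led the family in each library, followed by Bgn, and Fmod and Omd were the lowest members throughout. Of the FPKM summed over the 9 genes, Dcn held 46.0% in YTD and 56.3% in OTD, and 51.3% in YAD and 51.4% in OAD. Dcn and Bgn together took the larger part of every library, whereas the order of the middle members differed between phases. In telogen the order below Bgn was Lum, Ogn, Aspn, Prelp and Podn in both ages, with Prelp at 20.9 and Podn at 20.9 FPKM in YTD too close to be ordered. In OAD the order was Prelp, Lum, Podn, Ogn and Aspn, and in YAD it was Lum, Prelp, Podn, Aspn and Ogn. These levels are per base of the listed length, which for all 9 genes equals the coding sequence of a GENCODE transcript. The whole transcripts are 1.65 times (Dcn) to 3.18 times (Prelp) as long, so levels between members depend on whether reads in untranslated parts were counted, which is not given in the sources used here. The plain fold of a gene between libraries does not depend on its length, but the log2 change of a low gene does, through the pseudocount.

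**Figure D1:**
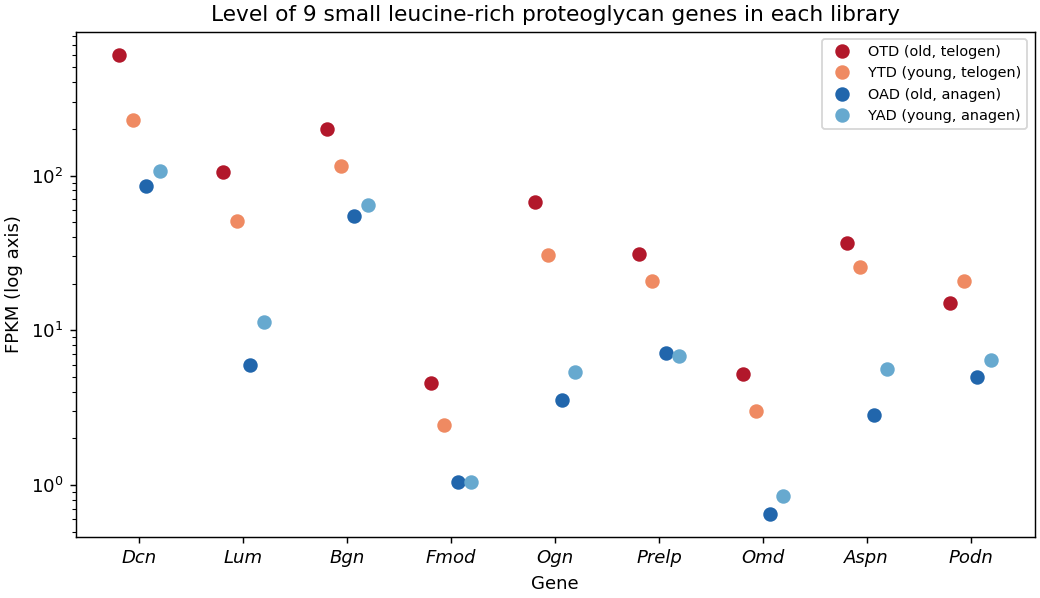
FPKM (log axis) of each of the 9 SLRP genes in OTD, YTD, OAD and YAD, 1 point per library. Both telogen points lie above both anagen points for each gene, and OTD is the highest library for each gene except Podn.

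The class I members Dcn, Bgn and Aspn were each highest in OTD. Dcn, whose product decorin wraps collagen fibrils and binds TGF-beta, had an FPKM of 230 in YTD and 599 in OTD, and 107 in YAD and 85.8 in OAD. It was 2.61-fold higher in old than young telogen, the highest fold of the family, with a log2 change of 1.38. In anagen the order of the ages turned round, with a log2 change of -0.31. Bgn, which encodes biglycan, the nearest relative of decorin and also a ligand of toll-like receptors, had an FPKM of 116 in YTD and 201 in OTD, and 64.2 in YAD and 54.9 in OAD. Its log2 changes with age were 0.79 in telogen and -0.22 in anagen. Aspn, which encodes asporin, a member with a run of aspartate residues in place of a sulfated chain, had an FPKM of 25.6 in YTD and 36.8 in OTD, and 5.59 in YAD and 2.82 in OAD. Its anagen values were 4.58-fold below telogen in the young and 13-fold below in the old, while its log2 change with age was 0.50 in telogen and -0.79 in anagen.

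The class II members, many of which carry keratan sulfate or sulfated tyrosines, differed widely in level and in their span between phases. Lum, the gene of lumican, a regulator of fibril width, had an FPKM of 51.1 in YTD and 105 in OTD, and 11.3 in YAD and 5.96 in OAD. It was 2.06-fold higher in OTD than YTD, and 17.7-fold lower in OAD than OTD. Its log2 change with age in anagen, -0.83, was the lowest of the family. Fmod, the gene of fibromodulin, had an FPKM of 2.45 in YTD and 4.57 in OTD, and 1.04 in YAD and 1.05 in OAD. The anagen values stand for roughly 26 and 27 fragments and did not separate the ages. Prelp, whose product links basement membrane to the collagen beneath, had an FPKM of 20.9 in YTD and 31.3 in OTD, and 6.78 in YAD and 7.13 in OAD. Omd, the gene of osteomodulin, known from bone, had an FPKM of 2.98 in YTD and 5.22 in OTD, and 0.844 in YAD and 0.651 in OAD, with roughly 19 fragments in OAD. Between phases in old mice Omd was 8.02-fold lower in anagen, Prelp 4.38-fold and Fmod 4.34-fold. Omd was 1.75-fold higher in OTD than YTD, and Prelp 1.5-fold.

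Ogn, the gene of osteoglycin (mimecan), which also shapes collagen fibrils, was close to Lum in its course. Its FPKM was 30.6 in YTD and 67.1 in OTD, and 5.36 in YAD and 3.56 in OAD. It was 2.20-fold higher in OTD than YTD and 18.8-fold lower in OAD than OTD, the widest span of phases in the family by fold of FPKM. Podn, the gene of podocan, a collagen-binding member first described in kidney, went the other way in telogen. Its FPKM was 20.9 in YTD and 14.9 in OTD, and 6.40 in YAD and 5.0 in OAD, so that it was lower in the old library in both phases, with log2 changes of -0.46 and -0.30. Dcn was 40.2 times Podn in OTD, against 11 times in YTD, 16.7 in YAD and 17.2 in OAD.

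In telogen, OTD exceeded YTD for 8 of the 9 genes and fell short of it for Podn. Dcn, Ogn and Lum passed a log2 change of 1, so 3 of 9 were counted as higher. Of all 17230 genes above 0 in these libraries, 1.67% were higher by as much, and of the 12982 genes that reached an FPKM of 1 in either, 2.21%. The median log2 change of the members was 0.69, against -0.06 over the genes that reached an FPKM of 1, whose quartiles were -0.36 and 0.24. All members but Podn lay above these quartiles. The 3 genes that passed came from the clusters on chromosomes 10 and 13, with cluster neighbours Omd and Aspn at 0.64 and 0.50.

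Markers of several cell types stood in the same direction in telogen. Of 12 fibroblast markers, OTD was above YTD for 12, and their median change was 0.48 on the log2 scale. They summed to 2154 FPKM in OTD and 1476 in YTD, of which Vim held 828 and 423 and Ly6a 517 and 400. Of 12 macrophage markers, 11 were higher, with summed FPKM of 839 and 513, and of 10 endothelial markers all 10 were higher, with 616 and 401. Adipocyte markers were split, with 7 of 12 higher. Skeletal muscle markers went the other way, lower in OTD in 12 of 12 cases, with summed FPKM of 60190 and 92482, and 13 of 14 hair matrix and epidermis markers were lower, with 275 and 469. Of 8 smooth muscle and pericyte markers 6 were higher, with summed FPKM of 1645 and 1996. Des, which was lower in OTD, alone held 1039 and 1666 of these sums, while Acta2, Tagln and Cnn1 were higher by at least 1. Of 7 tendon and cartilage markers above 0, 3 were higher, with summed FPKM of 27.8 and 33.1. None of the fibroblast, macrophage or endothelial markers was listed at 0 in any library. The part of these tissues in the change of the proteoglycan genes was not tested. Relative to the median of the fibroblast markers, Dcn was higher by a log2 change of 0.90, Ogn by 0.63, Lum by 0.55 and Aspn by 0.02, and Podn was lower, at -0.94.

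In anagen, 7 of the 9 genes were lower in OAD than YAD and none passed a log2 change of 1 in either direction, whereas in TPM Lum and Aspn passed it, at -1.06 and -1.02. In FPKM as deposited, 0.454% of all 17613 genes above 0 were lower by at least 1, and 0.612% of the 13068 that reached an FPKM of 1. No share of all genes in TPM is given here. The median of the members was -0.30, against 0.00 over the genes that reached an FPKM of 1, with quartiles of -0.14 and 0.16. Lum and Aspn had the lowest values, -0.83 and -0.79, followed by Ogn at -0.48. Prelp, at 0.06, and Fmod, at 0.01, were the members not lower, and both turn negative when the libraries are rescaled to TPM, which lowers the median of the genes that reached an FPKM of 1 by 0.21. Under that scaling, relative to those genes, the median of the members was -0.31. Fibroblast markers were lower in 9 of 12 cases, with summed FPKM of 331 in OAD and 381 in YAD, all 12 macrophage markers were lower, with 108 and 138, and all 12 adipocyte markers were higher, with 2854 and 2012, or 7 of 12 in TPM. All 10 endothelial markers were higher too, with 161 and 122, or 7 of 10 in TPM. Skeletal muscle markers were higher in OAD in 9 of 12 cases, with 14562 and 10676, or 7 of 12 in TPM. Hair matrix and epidermis markers were higher in 9 of 14 cases, with 18340 and 13707, or 8 of 14 in TPM. The part of these tissues in the result was not tested.

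**Figure D2:**
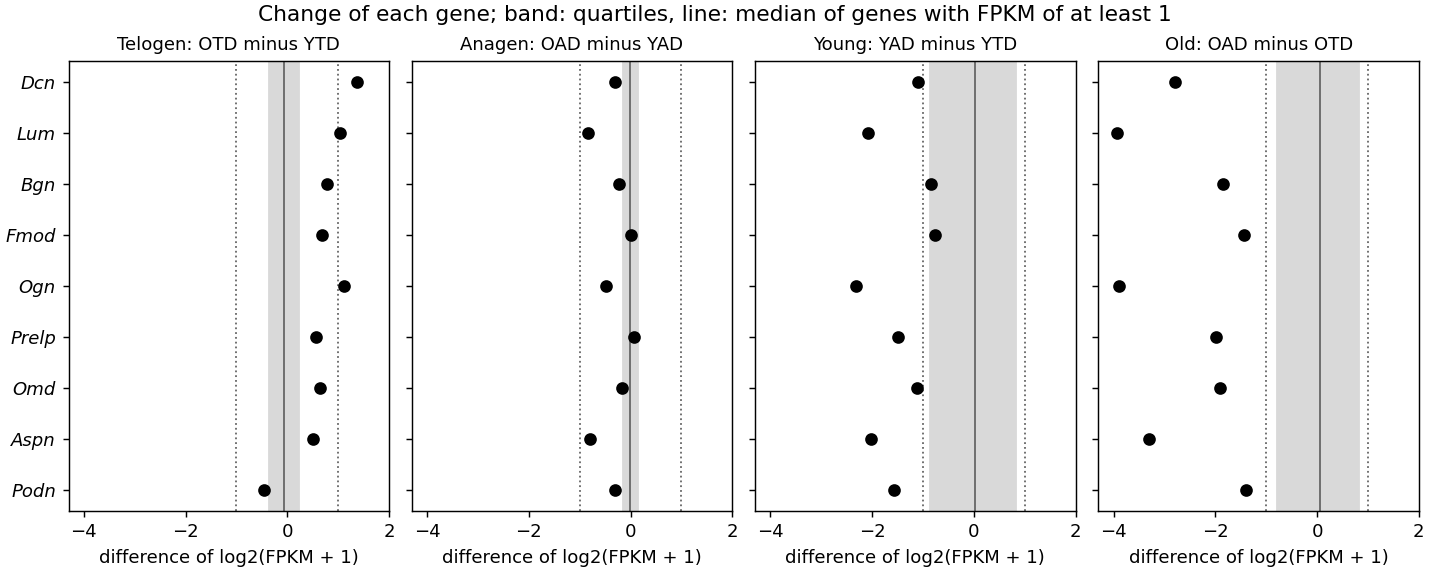
Difference of log2(FPKM + 1) for each gene in the 4 comparisons, with dotted lines at -1 and 1. The band spans the quartiles and the line marks the median of genes that reached an FPKM of 1. In telogen 8 genes lie to the right of the band, and in the old mice all 9 lie to the left of -1 between the phases.

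Between the phases the whole family was lower in anagen in FPKM, with 1 exception under another scaling, Bgn in young mice, at 0.20 in TPM without hair keratin and melanocyte genes. In young mice all 9 genes were below YTD in YAD and 7 passed a log2 change of 1, with Bgn at -0.84 and Fmod at -0.75 short of it. Of all 17622 genes above 0, 16.7% were lower by at least 1, and of the 13738 that reached an FPKM of 1, 21.4%. In old mice all 9 passed it, against 15.6% of 17712 genes above 0 and 19.9% of 13847 genes that reached an FPKM of 1. In TPM, 3 passed it in young and 8 in old mice. The shares above are for FPKM as deposited, and no share of all genes in TPM is given here. TPM puts the median of the genes that reached an FPKM of 1 at 0.76 in young and 0.58 in old mice. The median log2 change of the members was -1.49 in young and -1.99 in old mice, where that of genes that reached an FPKM of 1 was 0.03 and 0.05. The lowest members were Ogn, Lum and Aspn, at -2.31, -2.08 and -2.01 in young and -3.90, -3.94 and -3.31 in old mice. On this scale Bgn and Fmod changed least in the young, and Podn and Fmod least in the old, at -1.41 and -1.44. Podn alone differed more between phases in young mice, 3.26-fold lower in anagen, than in old mice, 2.98-fold lower. The wider span in old mice for the others rests on the same 4 values as the age changes above.

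The phases also differed in what the tissue held. The summed FPKM of 14 hair matrix and epidermis markers went from 275 in OTD and 469 in YTD to 18340 in OAD and 13707 in YAD. Adipocyte markers were lower in anagen in 12 of 12 cases in both ages, with medians of -1.63 in young and -1.40 in old mice. Fibroblast markers were lower in 10 of 12 cases, with medians of -1.52 and -2.16, and endothelial markers in 10 of 10, with -1.53 and -1.85. Macrophage markers were lower in 11 of 12 cases in young and 12 of 12 in old mice, with medians of -1.47 and -2.18. In TPM the medians in young mice were -0.83 for adipocyte, -0.79 for fibroblast, -0.75 for endothelial and -0.71 for macrophage markers. In old mice they were -0.79, -1.59, -1.26 and -1.76 in the same order. Fibroblast markers in TPM were lower in 8 of 12 cases in young and 10 of 12 in old mice. All 12 skeletal muscle markers were lower in both ages, with summed FPKM of 92482 in YTD against 10676 in YAD and 60190 in OTD against 14562 in OAD. The part of this shift in the lower levels of the proteoglycan genes was not tested. Relative to the median of the fibroblast markers in young mice, Dcn, Bgn, Fmod and Omd lay higher, by 0.43, 0.69, 0.77 and 0.41, Prelp and Podn lay within 0.04 of it, and Lum, Ogn and Aspn lay lower, at -0.55, -0.79 and -0.49. In old mice Lum, Ogn, Aspn and Dcn lay lower, at -1.77, -1.74, -1.14 and -0.63, and Podn, Fmod, Bgn, Omd and Prelp lay higher, by 0.75, 0.72, 0.31, 0.25 and 0.17. The pseudocount understates the falls of low genes such as Omd and Fmod, so both lie too high on this scale. By plain fold Omd was 8.02-fold lower in OAD than OTD, against 6.99-fold for Dcn, which lay below the median. In young mice Omd was 3.54-fold lower, against 3.08-fold for Prelp, which lay within 0.04 of the median. Rescaled to TPM, which takes the median of the genes that reached an FPKM of 1 in young mice from 0.03 to 0.76, the members' median was -0.72, or -1.48 relative to those genes.

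Shares within a library do not depend on how libraries are scaled, and the make-up of the family also differed between the phases. Lum took 9.90% of the summed FPKM of the 9 genes in OTD and 10.2% in YTD, but 3.57% in OAD and 5.44% in YAD. The share of Ogn was 6.30% and 6.11% in telogen and 2.14% and 2.57% in anagen. The share of Bgn went the other way, from 18.8% in OTD and 23.1% in YTD to 32.9% in OAD and 30.8% in YAD. The FPKM of Bgn over Lum was 2.26 in YTD and 1.90 in OTD, and 5.66 in YAD and 9.21 in OAD. The share of Podn was 4.17% in YTD but 1.40% in OTD, and 3.07% in YAD and 3.0% in OAD.

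With age, the collagens that these proteins bind were about level in telogen and were lower in anagen. Of 12 collagen partner genes (types I, III, V, VI, XI, XII and XIV), 5 were higher in OTD and 7 lower, and their median change was -0.10 on the log2 scale. In anagen OAD lay below YAD for all 12, at a median of -0.87, and Col1a1, Col1a2, Col3a1 and Col14a1 passed a log2 change of 1. Col1a1, the main chain of type I collagen, had an FPKM of 133 in YTD and 94.5 in OTD, and 64.4 in YAD and 16.5 in OAD. Col3a1 had 227 in YTD and 226 in OTD, and 95.6 in YAD and 33.5 in OAD. In telogen the proteoglycan genes thus stood higher in the old library over collagen genes that were about level, and in anagen they were modestly lower over collagen genes that were far lower.

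The summed FPKM of the 9 proteoglycan genes was 499.8 in YTD and 1065 in OTD, and 208 in YAD and 167 in OAD. The 12 collagen genes summed to 642, 605, 329 and 122 in the same order. The ratio of proteoglycan to collagen genes was 0.778 in YTD against 1.76 in OTD, a 2.26-fold difference. In anagen it was 0.633 in YAD against 1.37 in OAD, a 2.16-fold difference. Without Dcn the ratio was 0.421 in YTD against 0.770 in OTD, and 0.308 in YAD against 0.664 in OAD, which is 1.83-fold and 2.15-fold higher in the old. With geometric means over each list it was 1.38 in YTD against 2.36 in OTD, and 0.608 in YAD against 0.961 in OAD, which is 1.71-fold and 1.58-fold higher. The old library was above the young one of its phase in each of these forms, but which libraries lay above a ratio of 1 differed between them. Dcn over Col1a1 was 1.72 in YTD and 6.34 in OTD, and 1.66 in YAD and 5.19 in OAD. Bgn over Col1a1 was 0.868, 2.12, 0.997 and 3.32, and Lum over Col1a1 was 0.383, 1.12, 0.176 and 0.360 in the same order. Within each phase these ratios to Col1a1 were all higher in the old library. Across phases, the ratios of Dcn and Bgn in both old libraries lay above those in both young ones, while that of Lum in OAD lay below YTD. Over the geometric mean of the fibroblast markers, the members' sum was 1.53-fold higher in OTD than YTD, but in anagen it was 10.5 in OAD and 11.2 in YAD.

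**Figure D3:**
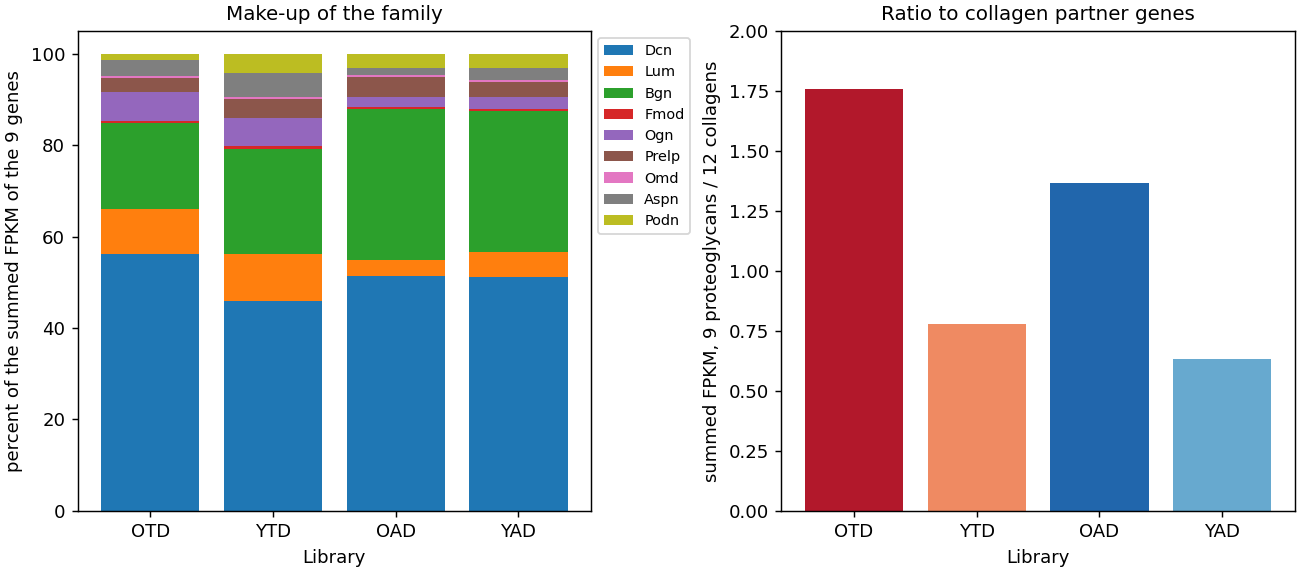
Left, percent of the summed FPKM of the 9 genes that each gene takes in each library. Right, summed FPKM of the 9 genes over that of 12 collagen partner genes, which is 1.76 and 1.37 in the old and 0.778 and 0.633 in the young libraries.

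**Figure D4:**
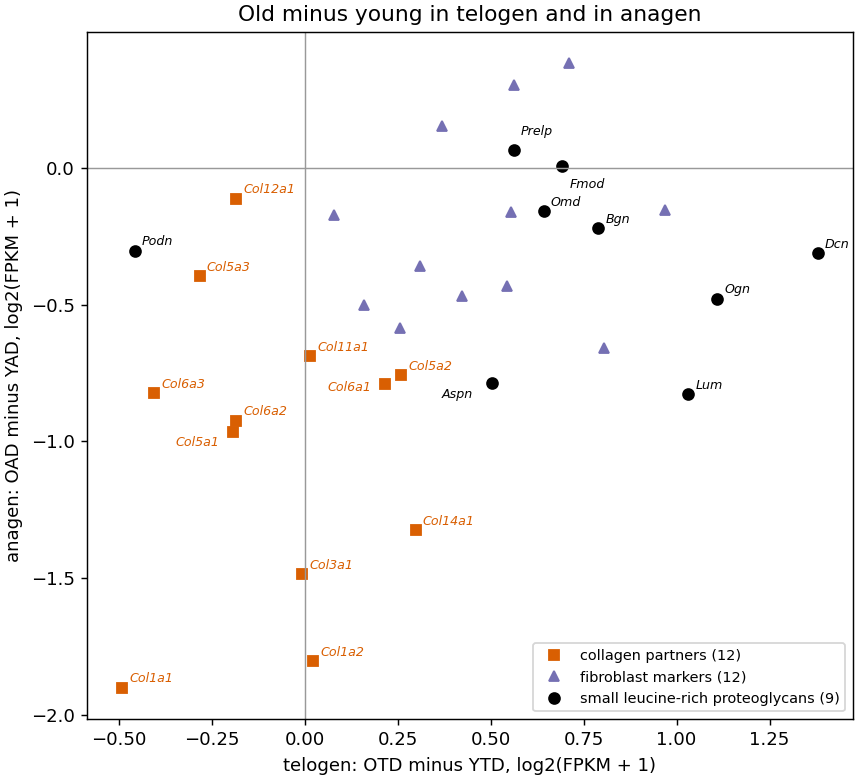
Old minus young difference of log2(FPKM + 1) in telogen (x axis) and in anagen (y axis), 1 point per gene, for the 9 SLRP genes, 12 collagen partner genes and 12 fibroblast markers. Most SLRP genes lie to the right, with telogen values of 0.50 to 1.38 for all but Podn, while the collagen genes lie low, down to -1.90 in anagen.

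Other members of the SLRP family were scarce. Of 9 further genes, Ecm2, Tsku and Chadl reached an FPKM of 1 in a library. Ecm2, the cluster neighbour of Aspn, took the course of that cluster, with an FPKM of 7.13 in YTD and 13.8 in OTD, and 1.46 in YAD and 1.23 in OAD. Its log2 changes were 0.86 with age in telogen, -1.72 between phases in young and -2.73 in old mice. Tsku, the gene of tsukushi, a secreted modulator of BMP and Wnt signals, was higher in anagen, with 2.53 in YTD and 2.71 in OTD, and 8.09 in YAD and 6.90 in OAD. Chadl had 1.74, 1.64, 0.383 and 0.620 in the same order. Cenpp, whose span encloses the chromosome 13 cluster, had 1.61, 1.35, 3.57 and 2.60, and so was higher in anagen, unlike the genes within it.

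Of 23 other proteoglycan core proteins, 20 were above 0 in telogen, of which 11 were higher and 9 lower in OTD, and their median was 0.02. Srgn, the intracellular proteoglycan of blood cells, was the gene that passed 1, at 1.18. In anagen 7 of 21 were higher and 14 lower in OAD, or 2 and 19 in TPM, and Vcan, the large proteoglycan of the dermal papilla and dermis, was lower, at -1.51 on the log2 scale, with 8.67 FPKM in YAD against 2.39 in OAD. Between the phases the list was split in young mice, with 11 higher and 10 lower, or 16 and 5 in TPM. In old mice 10 were higher and 11 lower, or 11 and 10 in TPM. There Prg4, Srgn, Sdc2, Sdc3 and Gpc3, 5 of 21, were lower by at least 1, against 15.6% of all genes above 0. Agrn, Sdc1, Sdc4 and Gpc2 were higher by at least 1. Sdc1, the syndecan of epithelia, went from 17.8 in YTD to 168 in YAD and from 18.2 in OTD to 196 in OAD.

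As lists, the enzymes that build the sulfated chains were split in each comparison in FPKM, although some took the course of the SLRP genes. Of 22 genes for chondroitin and dermatan sulfate, 14 were higher and 8 lower in OTD, at a median of 0.21 and with none past 1. In anagen 11 of 21 were higher in OAD and 10 lower, or 3 and 18 in TPM. Between the phases in young mice 11 were higher and 10 lower in YAD, or 16 and 5 in TPM. In old mice 12 were higher and 10 lower in OAD, or 14 and 8 in TPM. There Csgalnact2, Chst7, Chst15 and Ust, 4 of 22, were lower by at least 1, against 15.6% of all genes above 0, and none was higher by as much. Csgalnact2, which starts the chondroitin chain, was the lowest of the list on the log2 scale, with 21.3 FPKM in YTD against 4.45 in YAD and 18.5 in OTD against 4.20 in OAD. Of 7 keratan sulfate genes, 4 were higher and 3 lower in OTD, and 5 higher and 2 lower in OAD than YAD, or 1 and 6 in TPM. Between the phases 4 were higher and 3 lower in anagen in both ages, or 6 and 1 in young mice in TPM. B3gnt2, which extends the chain, was higher in OTD than YTD, at 7.49 against 2.62 FPKM, but also in YAD, at 9.92. Chst1, which sulfates it, was lower in anagen, with 24.1 in YTD and 27.3 in OTD, and 5.51 in YAD and 7.38 in OAD.

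Of 12 ligands and receptors that SLRP proteins bind, 10 were higher in OTD, at a median of 0.16 and with none past 1, and 9 were lower in OAD, at a median of -0.07. Tlr2 and Tlr4, the receptors of biglycan, changed by 0.69 and 0.54 in telogen. Tgfbr2 had an FPKM of 30.5 in YTD and 45.2 in OTD, and 9.55 in YAD and 9.02 in OAD, and Tgfb1 stayed between 12.6 and 14.8 FPKM. Of 10 proteases that can cut these proteins, 8 were higher in OTD, and Mmp3 and Adamts4 passed 1, at 1.52 and 1.08. Mmp2 had 32.1 in YTD and 56.2 in OTD, and 14.9 in YAD and 9.71 in OAD.

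Of 10453 other genes that have a symbol and reached an FPKM of 5, those most like each member over the 4 libraries were found by the root mean square difference of centred log2(FPKM + 1). With 4 values a close match is a description only. For Dcn the 5 closest were Slc11a1, Cd68, Cd84, Itgbl1 and Wfdc17, at 0.06 to 0.09. For Lum they were Tyrobp (0.08), Lyz2, Ctss, C1qtnf3 and Ccl2, and for Ogn Ccl2 (0.12), Lyz2, Tyrobp, Ctss and Myoc. For Aspn they included Ear2 (0.14), C1qtnf3, Pf4 and Ccl9. Several of these, such as Cd68, Tyrobp and Lyz2, are known from macrophages, whose summed markers were highest in OTD, as were those of fibroblasts, endothelium and adipocytes. Bgn was closest to Dhh (0.04), Stxbp6, Akr1b8, Rbpms and Mmp19, and Fmod to Il13ra1 (0.04), Dlc1, Myh11, Pdia5 and Rap1b. Prelp was closest to Mr1 (0.01), Lix1l, Ube2l6, Amigo2 and Cd302, Omd to Usp18 (0.03), Gata2, Jam3, Ccn3 and H2-DMb1, and Podn to Cd209d (0.02), Grb10, Cd209b, 5730455P16Rik and Egflam. Among the members themselves the closest pairs were Bgn and Omd, at 0.10, and Lum and Ogn, at 0.14, and the farthest were Fmod and Ogn, at 1.03. The pseudocount narrows the span of low genes such as Omd and Fmod in this measure. By plain fold, Omd was 8.02-fold lower in OAD than OTD and Bgn 3.65-fold, so they did not share a course in that sense.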

How the data were processed

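RNA of dWAT was sequenced in 4 libraries. Each library came as FPKM values that the authors deposited for 22913 genes, with positions on GRCm38 and listed lengths, of which 97.0% are multiples of 3. Per the labels, bcl2fastq and TopHat2 were used. The counting tool, annotation, use of strand and any scaling between libraries are not given in the sources used here. Symbols were matched for 21750 identifiers. Groups were taken from the sample titles.

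FPKM were used as deposited, with a pseudocount of 1 and a log2 threshold of 1, and without a test, since there was 1 library per group. The depth is a rough estimate from the lowest values of FPKM times length, and counting error is all that it covers. All members stood above the value of 3 fragments in each library. The genes named are all 9 members, genes of 16 other lists that passed a log2 change of 1 in a comparison or were among the 4 of highest mean FPKM in their list, and the 5 genes closest in profile to each member. Cenpp and Scp2 were named after their values were seen, since their spans overlap members. Members and lists were chosen with earlier results of these data known, among them the lower collagen genes in OAD, so they are no independent support. Promoter sequences are from RefSeq (GRCm38.p6) and transcript lengths from GENCODE. Other pseudocounts, a filter at an FPKM of 1, scaling to TPM or by median ratios (15507 genes), and other thresholds were tried. The denominators other than collagen and the centring on genes that reached an FPKM of 1 were added after the values were seen. Of the genes closest in profile to Aspn, 1 is not reported here. The steps were tested on simulated data. Python 3.11.15, numpy 2.4.6, pandas 2.3.3 and matplotlib 3.10.9 were used.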

Additional observations from a re-analysis of the deposited data

Results flagged for a closer look

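For 6 members the old library was higher in telogen and lower in anagen, and the share of all genes with this pattern is not given here. For Omd the anagen values stand for roughly 19 fragments in OAD and 24 in YAD. The pattern was not particular to the family. Of 12 fibroblast markers, 12 were higher in old telogen and 9 lower in old anagen, and of 12 macrophage markers 11 and 12. The log2 change with age in telogen minus that in anagen was 1.86 for Lum, 1.69 for Dcn, 1.59 for Ogn, 1.29 for Aspn, 1.01 for Bgn and 0.80 for Omd. With 1 library per group this difference was not tested. The order is led by Lum, Dcn and Ogn, the genes that passed a log2 change of 1 in telogen. Since the telogen change is a term of this difference, that order is no separate result. For Fmod and Prelp the anagen change was above 0 but turns negative in TPM, and for Podn both changes were negative.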

How the results depend on the processing

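With 1 library per group no spread is known, and a log2 value was taken as moved when it shifted by more than 1.5-fold, and a count likewise. Rescaling by the median of ratios and centring on the genes that reached an FPKM of 1 kept each count and median of the members within this limit. In TPM the median of the members between phases in young mice moved to -0.72 with 3 genes counted, and to -0.53 with 3 genes counted when hair keratin and melanocyte genes were left out before scaling, where Bgn turns positive. These scalings also raise the median of the genes that reached an FPKM of 1. For OAD against YAD, 2 members are counted in TPM and 2 without hair genes, and 1 without mitochondrial and muscle genes, against 0 as deposited. A pseudocount of 0.1 or 0.01 moved the old phase median to -2.80 and -2.80. At a threshold of 1.5-fold, 6 members are counted in telogen and 2 in anagen, and at a log2 threshold of 1.5, 0 in telogen and 4 between phases in young mice. The shares of all genes at these thresholds and scalings are not given here, so these counts describe the members only. The ratio of proteoglycan to collagen FPKM in YAD over YTD is 0.813 with sums and 0.439 with geometric means over each list. In OAD over OTD it is 0.776 with sums and 0.407 with geometric means. The ratio in OAD over YAD is 2.16 with summed collagen and 0.934, turning below 1, with fibroblast markers as the denominator. The causes of these shifts were not tested. No paired analysis was possible because each group holds 1 library. Depth limits Omd and Fmod most, with roughly 19 to 27 fragments in anagen.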
